A study of Arabidopsis thaliana with 15 samples.

Results

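Isocitrate lyase (ICL, AT3G21720), QQS (AT3G30720) and AT1G70820 are 3 genes of carbon reserve metabolism in Arabidopsis thaliana. They were chosen by gene symbol, as the probe sets that name 1 of these genes and no other. Each had 1 such probe set, so they are 3 of the 13286 genes named this way on 15 Affymetrix ATH1 arrays, and tests ran over all 22746 probe sets other than controls. The set was put together with earlier results of the same arrays in view. ICL had been named for its low signal after 4 h of FAMA, AT1G70820 for its high signal at 4 h and its change between 4 h and 48 h, and QQS for its high signal with FAMA-EAR. Those values are given below as descriptions with no test, and so are the contrasts in which the same arrays could have favoured the difference seen. Tests are given for the rest.

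The arrays measured RNA from whole seedlings of ecotype Columbia, grown on MS medium with sucrose in continuous light. After 5 days the seedlings moved to fresh plates, which held 10 µM estrogen for induction. In the groups FAMA 4 h and FAMA 48 h, estrogen switched on FAMA, a basic helix-loop-helix factor of late guard cell formation. In FAMA-EAR 48 h it switched on FAMA joined to the EAR repression domain, and control 4 h and control 48 h stayed uninduced on plates without estrogen. Each group had 3 arrays, and the labelled age was 5 days in the 4 h groups and 7 days in the others. The labels name neither the promoter of the inducible cassette nor the construct that control seedlings carried. Estrogen and construct therefore cannot be told apart in any comparison with a control.

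A germinating Arabidopsis seedling lives on oil stored in its cotyledons until photosynthesis takes over. Peroxisomes break the fatty acids down to acetyl-CoA, and the glyoxylate cycle, through isocitrate lyase and malate synthase, turns acetyl-CoA into 4-carbon acids from which sugar is made. Phosphoglucomutases interconvert glucose 6-phosphate and glucose 1-phosphate, the entry to ADP-glucose and starch, and AT1G70820 is annotated as phosphoglucomutase-like. QQS is an Arabidopsis orphan gene, without recognisable relatives in other species, whose small protein affects how carbon is shared between starch and protein and binds the transcription factor subunit NF-YC4.

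Signals are on the linear MAS5 scale, the array software's probe set summary, and differences are on the scale of log2(signal + 20). This offset shrinks differences between low signals. Adjusted p-values come from 1 limma fit over all tested probe sets with Benjamini-Hochberg adjustment, and the threshold was 0.05. FAMA itself had at least 2726 on the 9 induced arrays, against at most 255.7 on the 6 controls. The median signal was 188.2 to 199.0 on 14 arrays, and 239.5 on the third FAMA 4 h array, whose lower quartile was 79.2 against 39.7 to 48.1 on the others. That array stands apart in its low signals. The differences with FAMA at 4 h are also given without it for the 3 members, DPE1 and PPDK, and not for other genes. Of 6 seedling markers listed for shoot, root and guard cells, 5 were measured, and none was under 2101.2 on any array. The guard cell marker GC1 had 10802 ± 1327 in FAMA 48 h, 2958 ± 64.6 in FAMA-EAR 48 h and 3015 ± 223 in control 48 h (SD, n = 3 each). The shoot markers LHCB4.1, RCA and SBPASE and the root marker PYK10 had their lowest means in FAMA 48 h, and the part of these shifts in the results at 48 h was not tested. In whole seedlings, fewer cells of a type and less RNA per cell cannot be told apart.

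**Figure D1:**
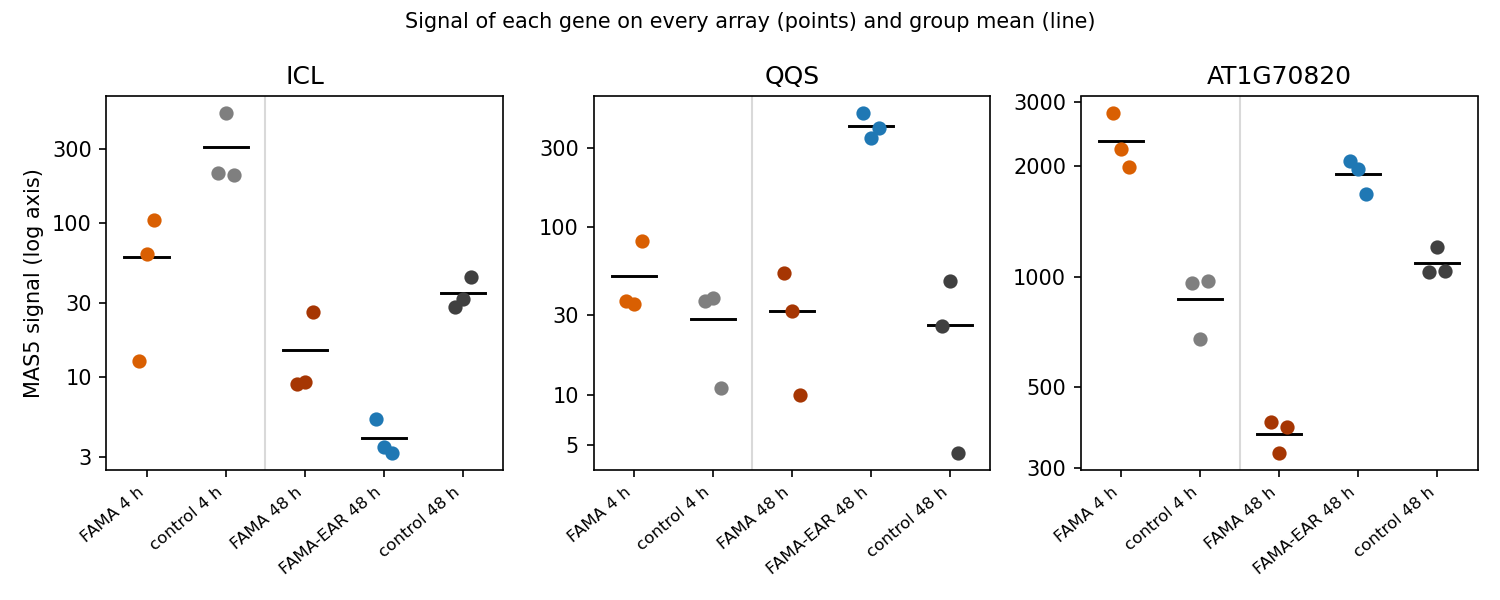
MAS5 signal (log axis) of ICL, QQS and AT1G70820 on each of 15 arrays, by group, with points for arrays and lines for group means. ICL is highest in control 4 h and lowest in FAMA-EAR 48 h, QQS stands apart in FAMA-EAR 48 h with 340.8 to 479.7, and AT1G70820 is high in FAMA 4 h and FAMA-EAR 48 h and lowest in FAMA 48 h.

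Without induction, ICL was high at 4 h and low at 48 h. Its signals were 28.2, 31.7 and 44.0 in control 48 h, against 210.4, 510.5 and 203.5 in control 4 h. The groups did not overlap, and the second control 4 h array stood well above the other two. The mean was 34.6 ± 8.30 in control 48 h and 308.1 ± 175 in control 4 h (SD, n = 3 each). The difference was -2.47 on the log2 scale (SE 0.415), and -2.69 to -2.07 without any 1 array. The control 4 h arrays also took part in the contrast for which ICL had been named, and a gene named for low FAMA 4 h values tends to have high ones there, so no test is given. The share of all probe sets that fell between the controls was 3.81%. The control 48 h arrays had ICL above 17.5% to 24.2% of their probe sets, so low that no fold is given.

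At 4 h, ICL was lower with FAMA. It had signals of 12.6, 62.7 and 104.3 in FAMA 4 h, against 210.4, 510.5 and 203.5 in control 4 h. Every FAMA array lay below every control array, though the FAMA arrays themselves spread widely. The difference was -2.12 (SE 0.415), -2.54 without the third FAMA 4 h array and -1.57 without the first, which had the lowest signal. This contrast chose the gene, so it carries no test, and the share of all probe sets lower there was 1.77%. On the induced arrays, ICL stood above 12.0%, 31.1% and 30.4% of the probe sets of its array, and on the controls above 51.9%, 72.2% and 50.8%. By this rank too, no FAMA 4 h array reached a control.

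At 48 h, all groups had low ICL. The signals were 9.0, 9.2 and 26.2 in FAMA 48 h, against 28.2, 31.7 and 44.0 in control 48 h. No FAMA array reached a control array, but the difference of -0.68 (SE 0.415, 95% interval -1.54 to 0.19) did not pass the threshold (adjusted p = 0.307). In FAMA-EAR 48 h the signals were 5.3, 3.5 and 3.2, all below those of control 48 h and FAMA 48 h. The difference from control 48 h was -1.18 (SE 0.415, 95% interval -2.04 to -0.31, adjusted p = 0.147). This call depended on the settings: at an offset of 1 the difference was -2.83 (adjusted p = 0.0239), and in a fit of these 6 arrays alone the adjusted p was 0.0391. FAMA 48 h was 0.50 above FAMA-EAR 48 h (SE 0.415, 95% interval -0.36 to 1.37, adjusted p = 0.479). ICL in FAMA-EAR 48 h stood above 4.06% to 7.77% of the probe sets of its array, near the floor of the measurement.

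In order of mean signal, ICL ran from control 4 h (308.1) through FAMA 4 h (59.9), control 48 h (34.6) and FAMA 48 h (14.8) to FAMA-EAR 48 h (4.00). FAMA 4 h and control 48 h are the neighbours whose arrays overlapped. The FAMA effect was -0.68 at 48 h and -2.12 at 4 h, a difference of 1.44 between times, or 1.58 relative to the median of all probe sets in that contrast, -0.14. It was 0.89 without the first FAMA 4 h array and 1.86 without the third. It contains the contrast that chose ICL and was not tested. ICL was already low in control 48 h, and the offset shrinks differences between low signals. A fall with FAMA at 48 h therefore had less room than one at 4 h. The part of this limit in the difference of 1.44 was not tested. The difference was 1.32 at an offset of 1 and 1.08 at an offset of 100.

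With FAMA, AT1G70820 lay above the controls at 4 h and below them at 48 h. At 4 h its signals were 2790.5, 2237.5 and 1998.7 in FAMA seedlings, against 958.5, 677.7 and 972.4 in control 4 h. All 3 induced arrays lay above the controls, and the means were 2342 ± 406 and 869.5 ± 166 (SD, n = 3 each). The gene was 2.69-fold higher on the linear scale and 1.41 higher in log2 units (SE 0.136), and 1.52 higher without the third FAMA 4 h array. At 48 h the signals were 400.1, 330.4 and 387.9 in FAMA seedlings, against 1030.8, 1204.9 and 1035.7 in control 48 h. All 3 induced arrays now lay below the controls, by 1.50 log2 units (SE 0.136), with means of 372.8 ± 37.2 and 1090 ± 99.1 (SD, n = 3 each).

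These values led to the choice of AT1G70820 and are descriptive. The share of all probe sets called higher at 4 h was 1.15%, and the share called lower at 48 h was 11.0%. The effect at 48 h minus that at 4 h was -2.91, or -2.78 relative to the median of all probe sets, and no other of the 22746 probe sets had a more negative one. On its arrays AT1G70820 stood above at least 93.3% of the probe sets in FAMA 4 h, above 61.4% to 65.9% in FAMA 48 h, and above 85.4% to 87.5% in control 48 h.

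With the repression domain attached, AT1G70820 was above the controls at 48 h. Its signals in FAMA-EAR 48 h were 2071.3, 1968.2 and 1678.1, against 1030.8, 1204.9 and 1035.7 in control 48 h, with no overlap. It rose by 0.79 log2 units (SE 0.136, 95% interval 0.51 to 1.08, adjusted p = 0.00155), where 1.39% of all probe sets rose. The call held without any 1 array, at 0.73 to 0.88 (adjusted p from 0.000449 to 0.0149). The control 48 h arrays had been seen in the choice of the gene, while the FAMA-EAR 48 h arrays had not.

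The induced groups at 48 h had estrogen for the same time, but their FAMA signals differed. The FAMA probe set had 18024 ± 944 in FAMA 48 h and 3060 ± 369 in FAMA-EAR 48 h (SD, n = 3 each). The part of this gap in the differences between these groups was not tested. AT1G70820 averaged 372.8 ± 37.2 in FAMA 48 h and 1906 ± 204 in FAMA-EAR 48 h (SD, n = 3 each). The difference was -2.29 (SE 0.136), with no overlap. The low FAMA 48 h values helped to choose the gene, so this is a description with no test. Of all probe sets, 11.6% were called lower and 11.1% higher. RNA quality was read from how far 3' signals exceed 5' signals of the actin and GAPDH transcripts, as a mean log2 ratio. It was 0.199, 0.191 and 0.214 in FAMA 48 h. It was 0.558, 0.731 and 0.533 in FAMA-EAR 48 h, and 0.301, 0.495 and 0.297 in control 48 h. The 3 groups did not overlap in this ratio, and its part in the results at 48 h was not tested.

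In control seedlings the AT1G70820 signals were 1030.8, 1204.9 and 1035.7 in control 48 h, against 958.5, 677.7 and 972.4 in control 4 h. The arrays did not overlap, and the difference was 0.33 (SE 0.136). Both groups had been seen in the choice of the gene, so no test is given. Its order of mean signal was FAMA 4 h (2342), FAMA-EAR 48 h (1906), control 48 h (1090), control 4 h (869.5) and FAMA 48 h (372.8). The highest pair of groups in this order overlapped, with the lowest FAMA 4 h array at 1998.7 and the highest FAMA-EAR array at 2071.3.

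QQS was near the floor in 4 of the 5 groups and well above it in FAMA-EAR 48 h. Its signals there were 479.7, 340.8 and 394.4, against 25.7, 47.9 and 4.5 in control 48 h. The lowest FAMA-EAR array lay far above the highest control array. The mean was 405.0 ± 70.1 in FAMA-EAR 48 h and 26.0 ± 21.7 in control 48 h (SD, n = 3 each). The log2 difference was 3.31 (SE 0.393), but its size follows the offset, with 4.38 at an offset of 1 and 2.01 at an offset of 100. The control signals are near the floor, so no fold is given. On its arrays QQS stood above 62.7% to 71.0% of the probe sets in FAMA-EAR 48 h, and above 5.66% to 25.9% in control 48 h. This contrast chose QQS and is not tested, and neither is the one between the induced groups, which holds the same arrays.

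FAMA without the repression domain did not give such a signal. QQS had 53.2, 31.5 and 9.9 in FAMA 48 h, against 479.7, 340.8 and 394.4 in FAMA-EAR 48 h, a difference of -3.12 (SE 0.393) with no overlap. The control 48 h arrays had been seen in the choice of QQS, which bears on the values against them. Against control 48 h the FAMA 48 h difference was 0.19 (SE 0.393), and the arrays of the groups overlapped. A choice that favours low control 48 h signals could have favoured this difference, so no test is given. At 4 h the signals were 36.4, 34.7 and 82.6 in FAMA seedlings, against 36.4, 37.6 and 11.0 in control 4 h. Here the difference was 0.55 (SE 0.393, 95% interval -0.27 to 1.37, adjusted p = 0.486). It was 0.26 without the third FAMA 4 h array, which holds the highest of these signals and whose low signals are raised as a whole. By rank that array was not exceptional for QQS, which stood above 25.8% of its probe sets and above 21.8% and 22.6% on the other two.

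Between controls, QQS differed by -0.14 at 48 h against 4 h (SE 0.393), and the arrays overlapped. The choice of QQS could have favoured this difference too, so no test is given. The FAMA effect at 48 h minus that at 4 h was -0.36 (SE 0.556, 95% interval -1.52 to 0.80, adjusted p = 0.727), or -0.22 relative to the median of all probe sets. The 4 low groups had means of 51.2 in FAMA 4 h, 31.5 in FAMA 48 h, 28.3 in control 4 h and 26.0 in control 48 h, and every pair of neighbours in this order overlapped.

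**Figure D2:**
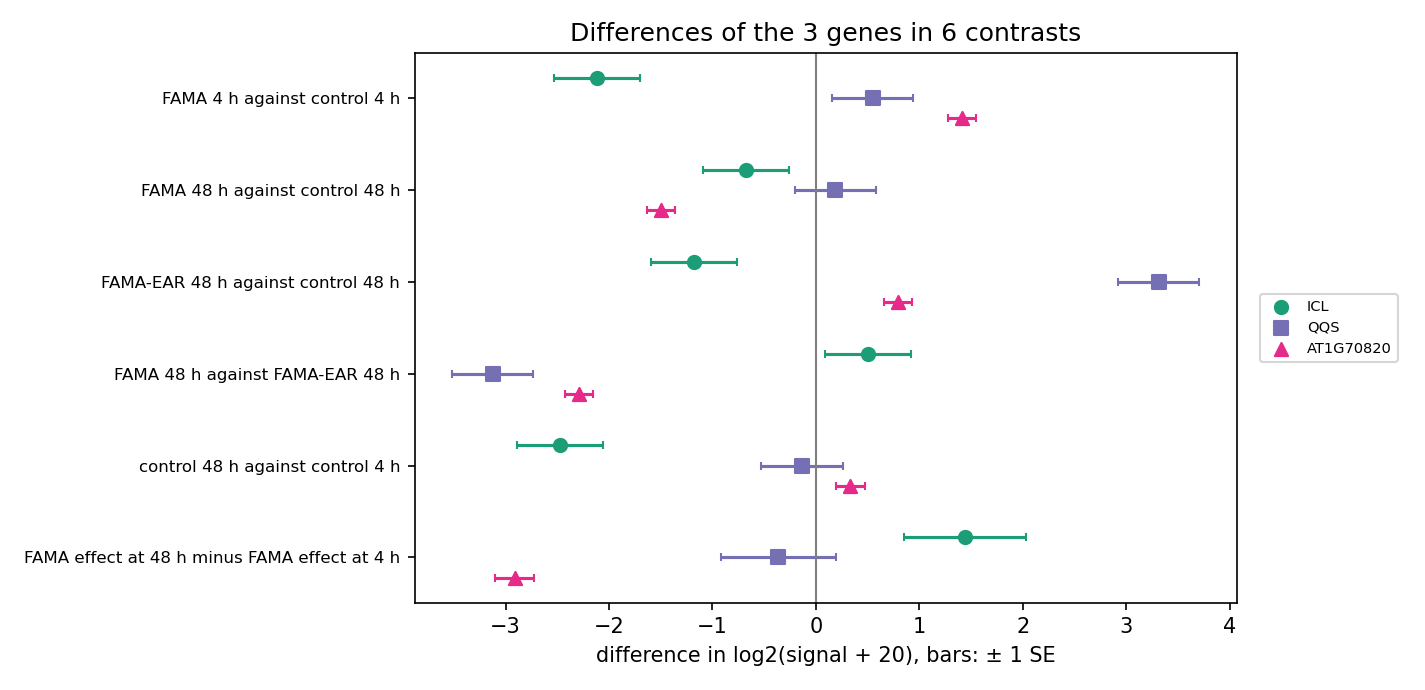
Differences in log2(signal + 20) of ICL, QQS and AT1G70820 in 6 contrasts, with bars of 1 SE on each side. AT1G70820 lies at 1.41 for FAMA at 4 h and -1.50 at 48 h, QQS at 3.31 for FAMA-EAR, and ICL at -2.47 between the controls.

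Other genes of oil and starch use were read from 6 lists with 122 genes besides these 3, and 14 genes had a probe set naming them alone. By list these were 1 of 19 for the glyoxylate cycle and gluconeogenesis, 3 of 20 for fatty acid and oil breakdown, 1 of 16 for seed storage and oil bodies, 4 of 22 for starch synthesis, 3 of 25 for starch breakdown and 2 of 20 for sugar starvation. Malate synthase, phosphoenolpyruvate carboxykinase, the 3 classical phosphoglucomutases and NF-YC4 were not analysed here. No filter on low signals was applied, so all 14 count below.

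Starch synthesis held the widest changes, in APL3 and APL4, large subunits of ADP-glucose pyrophosphorylase, the enzyme that makes ADP-glucose from glucose 1-phosphate. APL3 reached 979 ± 230 in FAMA 48 h, with arrays from 832.4 to 1243.6, against 111 ± 23.5 in control 48 h, with 84.5 to 129.4 (SD, n = 3 each). It rose by 2.92 log2 units (SE 0.214, adjusted p = 2.3e-09). APL4 reached 735 ± 90.7 in FAMA 48 h, with 654.1 to 833.1, against 71.4 ± 10.1 in control 48 h, with 59.7 to 77.8 (SD, n = 3 each), and rose by 3.05 (SE 0.237, adjusted p = 5.11e-09). Neither passed at 4 h, with 0.23 (adjusted p = 0.598) for APL3 and 0.49 (adjusted p = 0.295) for APL4. With FAMA-EAR the differences were 0.16 (adjusted p = 0.823) and 0.18 (adjusted p = 0.82). Between the induced groups at 48 h, APL3 was higher with FAMA by 2.76 (SE 0.214, adjusted p = 4e-09) and APL4 by 2.87 (SE 0.237, adjusted p = 9.35e-09). The effect at 48 h exceeded that at 4 h by 2.70 for APL3 (adjusted p = 2.68e-06) and by 2.56 for APL4 (adjusted p = 1.78e-05), or by 2.84 and 2.70 relative to the median of all probe sets.

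At 48 h of FAMA, AT1G70820 lay below the controls and these subunits above them. Over the 4 measured starch synthesis genes, 2 rose and 0 fell, and 10.6% of all probe sets rose in this comparison. The starch branching enzyme SBE2.2 had a difference of 0.08 (adjusted p = 0.832), at 1665 ± 110 in FAMA 48 h and 1586 ± 229 in control 48 h (SD, n = 3 each). AT5G39790, listed as PTST, which brings granule-bound starch synthase to the starch granule, had -0.48 (adjusted p = 0.0564). Its effect at 48 h was 0.90 below that at 4 h (difference -0.90, SE 0.248, adjusted p = 0.0169), or -0.77 relative to the median. Of all probe sets, 7.05% were called lower there and 6.59% higher. Without any 1 array the PTST difference was -1.06 to -0.71 (adjusted p from 0.00571 to 0.0477). The FAMA 4 h signals of PTST were 357.9, 299.8 and 499.2, the last on the third array.

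In starch breakdown DPE1, the plastid disproportionating enzyme that acts on short glucans, passed in 4 of the 6 contrasts. Its signals were 471.3 to 774.8 in FAMA 4 h, against 310.2 to 343.5 in control 4 h. DPE1 rose by 0.75 (SE 0.148, adjusted p = 0.00581). The call was lost in a fit of these 6 arrays alone (adjusted p = 0.0846) and with no variance moderation (adjusted p = 0.0582). It was close to the threshold with no variance trend (adjusted p = 0.0496). The call stayed without the third FAMA 4 h array (0.83, adjusted p = 0.00922). At 48 h it had 427.6 ± 40.1 in FAMA seedlings, against 675.7 ± 39.5 in FAMA-EAR seedlings (SD, n = 3 each), lower by 0.64 (difference -0.64, SE 0.148, adjusted p = 0.00265). Its effect of FAMA at 48 h minus that at 4 h was -1.01 (SE 0.209, adjusted p = 0.00214), or -0.87 relative to the median. Against control 48 h, the differences of -0.25 with FAMA (adjusted p = 0.274) and 0.38 with FAMA-EAR (adjusted p = 0.194) did not pass.

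DPE1 and PWD, the phosphoglucan water dikinase that phosphorylates starch for breakdown, rose in uninduced seedlings between the times. DPE1 had 515 ± 68.5 in control 48 h and 331 ± 17.9 in control 4 h (0.60, SE 0.148, adjusted p = 0.0136). PWD had 1311 ± 66.5 in control 48 h and 845 ± 147 in control 4 h (0.63, SE 0.176, adjusted p = 0.0309; SD, n = 3 each). The DPE1 call was lost without any 1 of 3 control arrays (second at 4 h, first or second at 48 h) and the PWD call without any 1 of 5 (all but the third at 4 h), with adjusted p up to 0.0768 and 0.135. Both were lost with no variance trend (adjusted p = 0.0664 for DPE1 and 0.147 for PWD) and no variance moderation (0.0722 and 0.17). Equal array medians lost the PWD call too (adjusted p = 0.0697). The third member, the alpha-amylase gene AMY1, passed in no contrast. Between the controls 2 of 3 measured starch breakdown genes thus rose, as did 3.37% of all probe sets.

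Of 3 measured genes of fatty acid and oil breakdown, the lipase genes SDP1 and SDP1L passed in no contrast. AIM1, a multifunctional enzyme of peroxisomal beta-oxidation, had 2867 ± 220 in FAMA 48 h and 2018 ± 360 in control 48 h (SD, n = 3 each). It rose by 0.51 (SE 0.107, adjusted p = 0.0011) and lay 0.62 above FAMA-EAR 48 h (SE 0.107, adjusted p = 0.000135). Between the controls, AIM1 differed by 0.03 (adjusted p = 0.95) and SDP1 by -0.24 (adjusted p = 0.273). OLEO3, an oleosin of the oil body coat, passed in no contrast. Its signals were 60.7, 61.5 and 409.3 in FAMA 4 h, and 246.7, 73.3 and 44.2 in control 4 h. The 409.3 came from the third FAMA 4 h array, whose low signals are raised as a whole.

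PPDK, pyruvate orthophosphate dikinase, which makes phosphoenolpyruvate from pyruvate, was the measured gene of gluconeogenesis. It had 546.5 ± 60.8 in FAMA 4 h and 776.2 ± 63.8 in control 4 h (SD, n = 3 each), a difference of -0.49 (SE 0.134, adjusted p = 0.0495). The call was lost without any 1 of 10 arrays, the third FAMA 4 h array among them (adjusted p = 0.174), and with the replicate number as a block (adjusted p = 0.0659). PPDK was also 0.39 higher in FAMA 48 h than in FAMA-EAR 48 h (SE 0.134, adjusted p = 0.0411). This call was lost with the block (adjusted p = 0.0538) and without any 1 of 5 arrays (adjusted p up to 0.224). Equal array medians (adjusted p = 0.144) and quantile normalization (adjusted p = 0.0942) lost it too. So did a fit with no variance trend (adjusted p = 0.102) or no variance moderation (adjusted p = 0.104). In the sugar starvation list IVD, isovaleryl-CoA dehydrogenase of branched-chain amino acid breakdown, fell between the controls by 0.56 (SE 0.126, adjusted p = 0.00675), and MCCA passed in no contrast. The IVD call was lost without the first control 4 h array (adjusted p = 0.0527) or the second control 48 h array (adjusted p = 0.0523).

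Over the 14 genes, 1 rose and 1 fell with FAMA at 4 h, and the median difference was 0.23, against 0.09 over all probe sets, of which 2.92% passed. At 48 h of FAMA 3 rose and 0 fell, with a median of 0.00 against -0.02, and 21.6% of all probe sets passed. With FAMA-EAR 0 of 14 passed in limma, with a median of 0.05 against -0.01, where 3.2% of all probe sets passed (1.81% lower). FAMA 48 h against FAMA-EAR 48 h had 4 higher and 1 lower, with a median of 0.07 against -0.01 and 22.7% of all probe sets passing. Between the controls 2 rose and 1 fell, with a median of -0.13 against 0.03 and 7.18% passing. Between the times of FAMA 2 differences were higher and 2 lower, with a median of 0.05 against -0.14 and 13.6% passing. These shares depend on single arrays. With FAMA at 4 h, 664 probe sets passed, and 398 without the second control 4 h array, 342 without the third and 1077 without the second FAMA 4 h array. With FAMA-EAR, 729 passed, and 399 without control 48 h array 2 and 387 without control 48 h array 3. It was 473, 358 and 451 without FAMA-EAR array 1, 2 or 3, and 1176 without FAMA 4 h array 3. Between the controls 1633 passed, and 1041 without the second control 48 h array. With array medians set equal, the calls over all probe sets at 4 h split into 111 higher and 451 lower, in place of 261 and 403, and those between times into 1444 and 964, in place of 1500 and 1603.

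**Figure D3:**
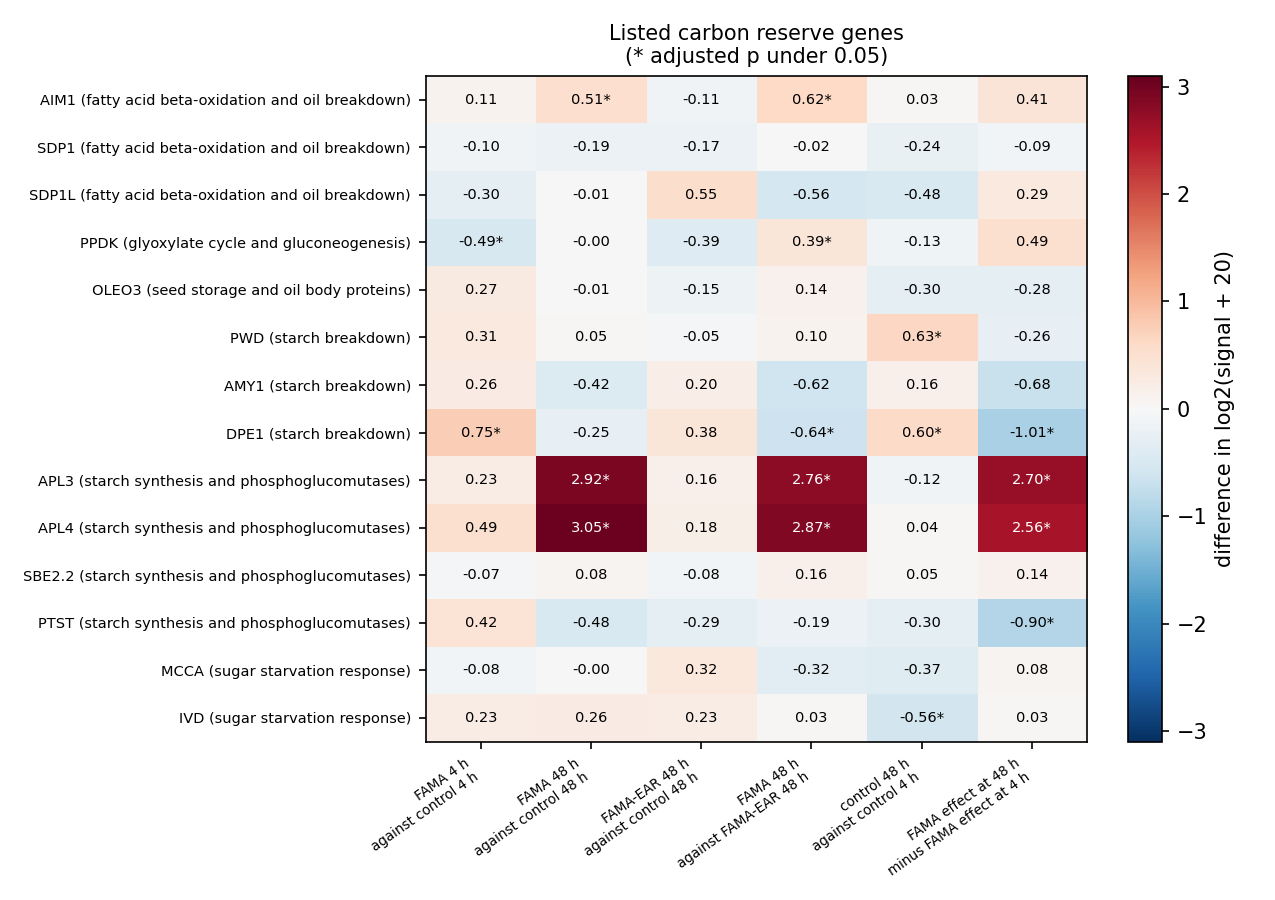
Differences in log2(signal + 20) of 14 listed genes (rows, with their list) in 6 contrasts (columns), coloured by size and marked with an asterisk where the adjusted p was under 0.05. APL3 and APL4 stand out with FAMA at 48 h, at 2.92 and 3.05, and no gene passes with FAMA-EAR against control 48 h.

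The named genes most like each member were taken by Pearson correlation of log2(signal + 20) over the 15 arrays, as a description. These arrays form 5 groups, so the values mainly compare group means, and they share the scaling of each array. For AT1G70820 the 5 nearest were AT1G66100 (r = 0.95), the thionin gene THI2.2 (0.95), AT1G73750 (0.94), AT4G32340 (0.94) and CCL (0.93), a gene whose short-lived transcript follows the circadian clock. CCL had 7732 ± 1024 in FAMA 4 h and 4131 ± 850 in control 4 h (SD, n = 3 each). At 48 h it had 2149 ± 69.3 in FAMA, 5140 ± 369 in FAMA-EAR and 3336 ± 268 in control seedlings. THI2.2 had 2383 ± 752 in FAMA 4 h and 1191 ± 81.4 in control 4 h, and then 594.6 ± 127 in FAMA 48 h, 1797 ± 160 in FAMA-EAR 48 h and 1104 ± 74.1 in control 48 h. AT1G73750 had 460.4 ± 53.0 in FAMA 4 h and 298.2 ± 30.9 in control 4 h, and 212.0 ± 44.2 in FAMA 48 h, 513.3 ± 43.5 in FAMA-EAR 48 h and 384.3 ± 14.5 in control 48 h, so its highest mean was in FAMA-EAR 48 h. A shared pattern follows from picking genes by correlation and is no finding.

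For ICL the nearest were AT4G22470 (0.95), AT2G39210 (0.93), AT5G39580 (0.93), AT5G11240 (0.93) and AT2G36690 (0.93). AT2G36690, for example, had 172.6 ± 17.2 in FAMA 4 h and 405.1 ± 43.5 in control 4 h, and 132.6 ± 4.59, 113.6 ± 8.11 and 195.7 ± 27.4 in FAMA 48 h, FAMA-EAR 48 h and control 48 h (SD, n = 3 each). No listed gene of oil use was among them, but most had no probe set naming them alone and could not appear. For QQS the nearest were AT1G26640 (0.93), AT4G07820 (0.92), AT1G43590 (0.89), AT4G11190 (0.89) and AT3G23720 (0.88). Of these AT1G43590 had the widest gap, with 406.7 ± 30.7 in FAMA-EAR 48 h and 15.8 ± 15.6 in control 48 h, while AT1G26640 had 806.9 ± 45.8 and 671.1 ± 33.1 (SD, n = 3 each). AT3G23720 had at most 27.1 on any array, so its likeness rests on signals at the floor. With array medians set equal, 3 of the 5 nearest to ICL and 2 of the 5 nearest to QQS were among the 5 again.

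**Figure D4:**
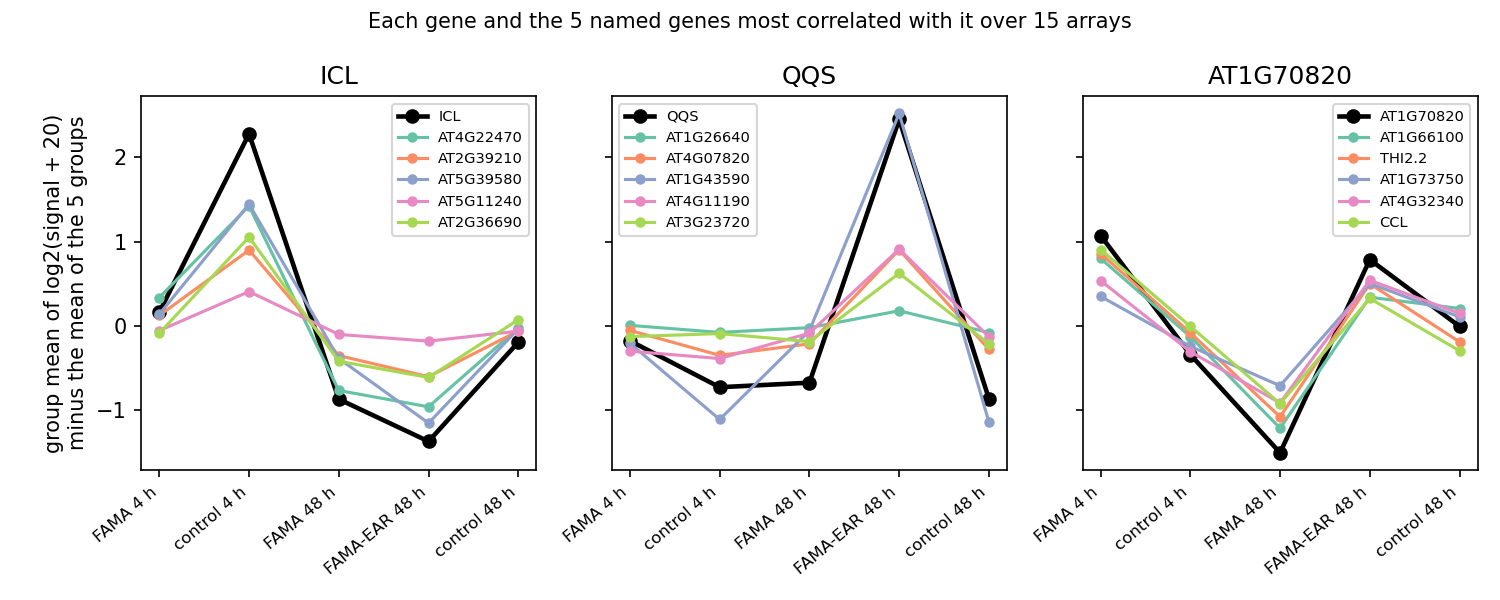
Group means of log2(signal + 20), each minus the mean over the 5 groups, for ICL, QQS and AT1G70820 (black) and the 5 named genes most correlated with each over 15 arrays (coloured lines). The lines near AT1G70820 run high in FAMA 4 h and FAMA-EAR 48 h and low in FAMA 48 h, and those near QQS peak in FAMA-EAR 48 h by different amounts.

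By position, the nearest 2 protein-coding genes on each side of each member in the TAIR10.1 gene table were looked up, 12 in all, and 3 were measured. AT1G70810, beside AT1G70820, had 0.16 with FAMA at 4 h (adjusted p = 0.579), 0.17 at 48 h (adjusted p = 0.498) and 0.05 with FAMA-EAR (adjusted p = 0.937). AT3G30730, 2 genes from QQS, had 0.23 with FAMA-EAR (SE 0.474, adjusted p = 0.901), where QQS was 3.31 higher. Its signals there were near the floor, at 24.9 ± 9.03 in FAMA-EAR 48 h and 17.8 ± 4.11 in control 48 h (SD, n = 3 each). This value therefore says little about a response of AT3G30730. AT3G21700 (SGP2), 2 genes from ICL, had 0.58 with FAMA at 4 h (adjusted p = 0.097) and 0.11 between the controls (adjusted p = 0.859). It passed in 1 contrast, the FAMA effect at 48 h minus that at 4 h (-0.86, SE 0.260, adjusted p = 0.03). Of all probe sets, 7.05% were called lower in that contrast, and the median of all was -0.14.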

How the data were processed

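The authors deposited MAS5 signal intensity on a linear scale for 22810 probe sets on 15 arrays. The method, MAS5, is from the submitters' processing notes, which for its version and scaling target leave a gap (not given in the sources used here). This method subtracts mismatch probes array by array, so low signals carry a large relative error. There are no counts, and the number of arrays limits the precision. Groups came from the titles. No label ties the replicates to separate cultures, and a p-value therefore reflects the spread between arrays, which may be technical.

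Signals were transformed as log2(signal + 20). After 64 control probe sets were left out, 22746 were fitted in limma 3.58.1 (R 4.3.3), with 5 group means, 10 residual degrees of freedom, a variance trend, two-sided moderated tests and Benjamini-Hochberg adjustment. The fit was tested on simulated data. Figures used matplotlib 3.10.9. An exact test of 3 arrays against 3 cannot go below p = 0.1.

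The gene table held 14016 probe sets, 13513 with 1 gene and 503 with several; 13436 of those with 1 gene matched the TAIR10.1 gene table, and 8730 tested probe sets had no name. The files name no genome build, so no coordinates are given. Tests planned for ICL between the controls, and for AT1G70820 between the controls and between the induced groups, are given as descriptions. The same holds for QQS between the controls and in FAMA 48 h against control 48 h. The members and lists were chosen with earlier results of these data known. Named genes were the 3 members, listed genes, and the 5 most correlated with each member; neighbours were added by position after the data were seen. Same-numbered replicates showed no pairing: deviations from the group means correlated at -0.06 to 0.04 in 30 pairs. Alternatives changed the offset, scaling, variance model, weights, filter, arrays in the fit and replicate block, and left out each array.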

Additional observations from a re-analysis of the deposited data

Results flagged for a closer look

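Each result here is a response that differed between the times or between the constructs. AT1G70820 differed by -2.29 between FAMA 48 h and FAMA-EAR 48 h, with all 3 FAMA arrays below and all 3 FAMA-EAR arrays above the control 48 h arrays. Its FAMA effect differed by -2.91 between 48 h and 4 h, with every induced array below the controls at 48 h and above them at 4 h. No test is given for either, because the FAMA 48 h values helped to choose the gene.

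Between FAMA 48 h and FAMA-EAR 48 h, the differences were 2.76 for APL3, 2.87 for APL4, 0.62 for AIM1, 0.39 for PPDK and -0.64 for DPE1 (limma). The PPDK call was lost under several alternatives, as given above. Between FAMA at 48 h and at 4 h, they were 2.70 for APL3, 2.56 for APL4, -0.90 for PTST and -1.01 for DPE1. The 3' to 5' ratio and the FAMA signal given above also parted FAMA 48 h from FAMA-EAR 48 h, and their part was not tested.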

How the results depend on the processing

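The call on AT1G70820 with FAMA-EAR against control 48 h held under the alternatives run. It came closest to the threshold with no variance moderation (adjusted p = 0.0444) and no variance trend (adjusted p = 0.0363). The call on ICL in the same comparison was gained at -2.83 with an offset of 1 and -1.18 in a fit of only the groups compared. With an offset of 1 QQS stood at 4.38 in FAMA-EAR 48 h against control 48 h and at -3.91 in FAMA 48 h against FAMA-EAR 48 h, and with an offset of 100 at 2.01 and -1.94. AT1G70820 stood at -1.33 with FAMA at 48 h and at -2.67 between times with an offset of 100. The offset itself sets how far low signals shrink. With FAMA at 4 h, 2 listed genes passed; 1 did with an offset of 100, equal array medians, quantile normalization, no variance trend, array weights or the replicate block, and 0 with no variance moderation or only the groups compared. Between controls 3 passed, and 1 with no variance trend or moderation. Leaving out 1 array gave QQS -0.21 to 0.54 for FAMA at 48 h and -0.48 to 0.26 between the controls, so its sign turned. It gave 1 to 2 listed genes with FAMA at 4 h, 3 to 5 at 48 h and 0 to 3 between the controls. Over all probe sets, 664 passed with FAMA at 4 h, and 303 with no variance trend, 348 with no moderation and 207 with only the groups compared. With FAMA-EAR 729 passed, and 463 with equal array medians, 322 with no trend, 417 with no moderation and 1217 with array weights. Between the controls 1633 passed, and 941 with no trend and 2653 with array weights. The cause of the changed counts was not tested. ICL and QQS lay below the filter on low signals (40th percentile) and have no value there. Replicate numbers do not pair these arrays, and with the replicate block AT1G70820 with FAMA-EAR had an adjusted p of 0.00123. Low signal limits ICL at 48 h and QQS outside FAMA-EAR 48 h.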
